A study of Mus musculus with 6 samples.

Results

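Genes of the interleukin-2 and common gamma-chain receptor pathway were followed in mouse regulatory T cells (Tregs) with a deleted gene for SREBP2, the transcription factor that switches on cholesterol synthesis and uptake genes. The 10 genes were named by their function in the pathway and found by symbol among the 24421 gene symbols of the count table. They comprise the receptor chains Il2ra, Il2rb, Il2rg, Il7r and Il4ra, the kinase Jak3, the transcription factors Stat5a and Stat5b and the feedback genes Cish and Socs2. All 10 passed the filter on low counts that left 11932 genes for testing.

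Srebp2cKO mice carried floxed alleles of the SREBP2 gene together with a Cre recombinase fused to a yellow fluorescent protein marker at the Foxp3 locus, written Srebp2FL/FL-Foxp3YFPCRE+/-. Srebp2WT mice, the controls, carried the same Cre allele with unmodified SREBP2 alleles, written Srebp2WT/WT-Foxp3YFPCRE+/+. Cre is thus present in both groups, at a dose given as +/- in Srebp2cKO and +/+ in Srebp2WT, so Cre dose and SREBP2 genotype cannot be told apart. Because Cre is driven from Foxp3, the deletion is directed to cells that express Foxp3. Tregs came from spleen and lymph nodes, with 3 libraries of total RNA in each group (Srebp2cKO replicates 6, 7 and 8, and Srebp2WT replicates 1, 3 and 5). The labels do not say whether the libraries of a group came from separate animals, and no age is given. The p-values therefore reflect the spread among 3 libraries a group, which may be technical.

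Interleukin-2 is bound by a receptor of 3 chains. The alpha chain (CD25, Il2ra) raises the affinity for the cytokine, while the beta chain (CD122, Il2rb) and the common gamma chain (CD132, Il2rg) carry the signal into the cell. The gamma chain also pairs with the receptor chains for interleukin-7 and interleukin-4, and it docks JAK3, which with JAK1 phosphorylates STAT5. Tregs make little interleukin-2 themselves, carry high CD25 and depend on interleukin-2 from other cells to keep Foxp3 expression and to survive. CISH and SOCS2 are switched on by STAT5 and dampen cytokine receptor signals.

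Libraries held 13918321 to 17249898 counts, and 14158 to 14689 genes had at least 1 count. Srebf2, the gene for SREBP2, stood at 12.4 ± 1.56 CPM in Srebp2cKO and 185 ± 10.9 CPM in Srebp2WT (CPM scaled with TMM library factors, mean ± SD, n = 3 libraries in each group here and below), so Srebp2cKO held 6.66% of the Srebp2WT level (edgeR adjusted p = 1.5e-08). The Treg markers Foxp3, Il2ra, Ctla4, Ikzf2, Cd4 and Cd3e each had at least 4822 counts in every library. Markers of other blood cells ranged from 0 counts in every library to at most 1299 counts, for Cybb, and are described by list at the end. Of all genes tested, 6.61% were called at an adjusted p under 0.05 (2.37% higher and 4.24% lower in Srebp2cKO, edgeR quasi-likelihood test with Benjamini-Hochberg adjustment over 11932 genes). These shares are the background for every count below.

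Of the 10 genes, 1 was called higher, Il2ra, and 0 were called lower with edgeR. At an unadjusted p under 0.05 there were 3 higher (Il2ra, Il7r and Socs2) and 2 lower (Il2rb and Jak3), that is 5 of 10 against 29.1% of all genes. DESeq2 called 2 higher, Il2ra and Socs2, and 1 lower, Jak3, where it called 5.46% of all genes higher and 6.78% lower. With limma-voom Il2ra was the 1 gene called, where 2.32% of all genes were called higher and 4.23% lower. At an edgeR adjusted p under 0.1, 2 genes were higher (Il2ra and Socs2) and 1 lower (Jak3), with 15.9% of all genes called. The median log2 fold change (Srebp2cKO over Srebp2WT) of the 10 genes was 0.02, with a range of -0.57 to 0.41, beside a median of 0.00 over all genes tested. In 3 genes all Srebp2cKO libraries lay above all Srebp2WT libraries (16.0% of all genes), and in 1 gene all lay below (15.5%). The 4 of 10 genes without overlap are near the 31.5% of all tested genes in that state, so this count is no result about the pathway.

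**Figure D1:**
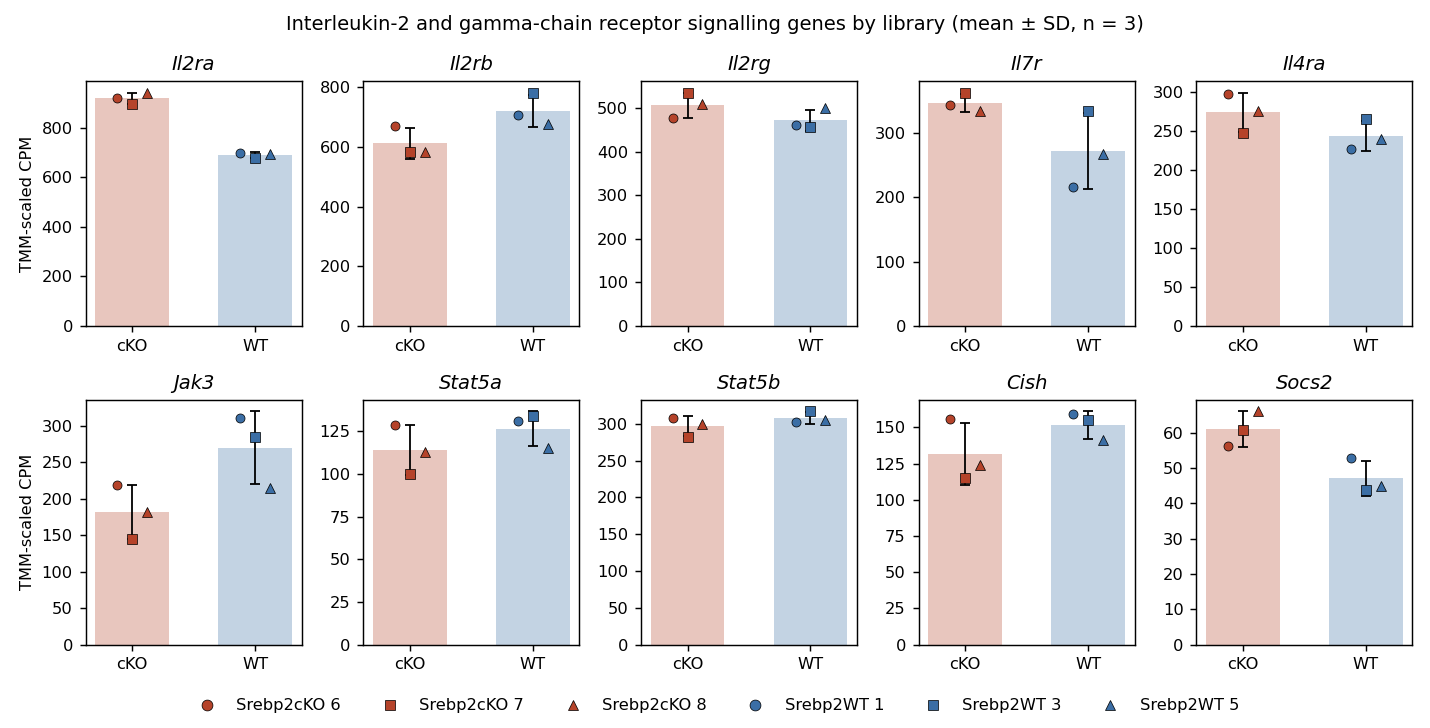
Levels of the 10 genes in TMM-scaled CPM (y axis, from 0) in each Srebp2cKO library (left, red) and each Srebp2WT library (right, blue), with bars for the mean and whiskers for the SD of 3 libraries. Il2ra is at 896 to 941 CPM in Srebp2cKO and 678 to 700.1 CPM in Srebp2WT, while most other genes overlap or nearly touch.

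Il2ra (ENSMUSG00000026770.5, chromosome 2 from 11642807 to 11693193 on the plus strand, GRCm38) had 922, 896 and 941 CPM in Srebp2cKO replicates 6, 7 and 8, against 700.1, 678 and 695 CPM in Srebp2WT replicates 1, 3 and 5. The raw counts behind these were 12555, 13896 and 16132 in Srebp2cKO and 11174, 10531 and 10266 in Srebp2WT. The groups lay well apart and were each tight. Transcripts of the alpha chain rose to 919.7 ± 22.1 CPM in Srebp2cKO, against 691 ± 11.3 CPM in Srebp2WT, which is 1.33-fold (log2 fold change 0.41, SE 0.07, 95% interval 0.26 to 0.57, edgeR adjusted p = 0.0101). In bulk RNA, a change in the share of cells and a change in RNA per cell cannot be told apart. The call held in the 8 other fits to all 6 libraries and in 5 of the 6 fits that left out 1 library, and was lost without Srebp2WT replicate 3 (log2 fold change 0.40, edgeR adjusted p = 0.0721). Among all genes, 2.27% were called higher with RLE scaling, 1.54% with total-count scaling, 2.02% with upper-quartile scaling, 2.53% among genes that reached 1 CPM in 3 libraries and 2.90% with no filter (4.49% lower).

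Calls over the whole table depended strongly on single libraries, which bears on every gene below that passed in some fits only. Without Srebp2cKO replicate 6, 5.80% of all genes were called higher and 6.52% lower, and without Srebp2WT replicate 5 these shares were 3.48% and 5.49%. Leaving out Srebp2cKO replicate 7 gave 0.619% higher and 1.84% lower, and leaving out Srebp2cKO replicate 8 gave 0.793% and 2.83%. They were 0.266% higher and 1.12% lower without Srebp2WT replicate 1, and 0.241% and 1.29% without Srebp2WT replicate 3.

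The start of Il2ra is shown because Il2ra was the gene of this set that was called. The window covers 250 bases before and 50 after the RefSeq start site (GRCm38.p6, chr2:11642542-11642841, plus strand, 5′ to 3′). It holds no match to TTCNNNGAA, the core letters of a STAT5 element, on either strand, nor to TCACNCCAC, core letters of a sterol response element. Sequence outside this window was not searched, so elements further upstream or within the gene would be missed.
Il2ra: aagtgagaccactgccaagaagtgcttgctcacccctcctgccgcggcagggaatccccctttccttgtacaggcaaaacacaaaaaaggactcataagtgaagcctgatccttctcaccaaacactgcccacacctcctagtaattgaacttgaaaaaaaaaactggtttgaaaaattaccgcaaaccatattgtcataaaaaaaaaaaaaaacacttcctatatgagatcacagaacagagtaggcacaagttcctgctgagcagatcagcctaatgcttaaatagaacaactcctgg

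Il2rb (chromosome 15 from 78479256 to 78495271, minus strand), the beta chain shared with the interleukin-15 receptor, had 671, 583 and 581 CPM in Srebp2cKO, against 705, 781 and 676 CPM in Srebp2WT. All Srebp2cKO libraries were below all Srebp2WT libraries, but Srebp2cKO replicate 6 came within a few CPM of Srebp2WT replicate 5. The log2 fold change of -0.24 (SE 0.09, 95% interval -0.43 to -0.04) did not pass (edgeR adjusted p = 0.117). Without Srebp2cKO replicate 6 it was -0.31 and passed narrowly (adjusted p = 0.0499). Il2rb lies 3.65 Mb from the floxed gene Srebf2 on the same chromosome.

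Il2rg (chromosome X from 101264378 to 101268255, minus strand), the chain shared by all receptors of the family, had 477, 534 and 509 CPM in Srebp2cKO, against 461, 456 and 499 CPM in Srebp2WT. The groups overlapped. With a log2 fold change of 0.10 (SE 0.08), Il2rg did not pass (edgeR adjusted p = 0.407), and its 95% interval reached from -0.07 to 0.27. Exons of Gm20489, a gene that is not in the count table, overlap 30.5% of Il2rg exon bases on the same strand, so the Il2rg level is uncertain where reads fall there.

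The balance of the receptor chains was compared as a ratio of counts inside each library, for pairs chosen with the fold changes known. Such a ratio restates the fold changes of its genes, but it does not depend on how libraries are scaled to each other. There were 1.37, 1.54 and 1.62 counts of Il2ra per count of Il2rb in Srebp2cKO, against 0.993, 0.868 and 1.03 in Srebp2WT. The ranges did not overlap. The mean log2 ratio was 0.59 ± 0.12 in Srebp2cKO and -0.06 ± 0.13 in Srebp2WT, a difference of 0.65 (exact two-sided permutation p = 0.1, the smallest possible for 3 against 3, and 0.267 adjusted over the 8 ratios compared). Il2ra per Il2rg also had no overlap, at 1.93, 1.68 and 1.85 in Srebp2cKO and 1.52, 1.49 and 1.39 in Srebp2WT (log2 difference 0.31, exact permutation p = 0.1, adjusted p = 0.267). Il2rb per Il2rg overlapped, at 1.41, 1.09 and 1.14 in Srebp2cKO and 1.53, 1.71 and 1.35 in Srebp2WT (log2 difference -0.34, exact permutation p = 0.200, adjusted p = 0.320).

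**Figure D2:**
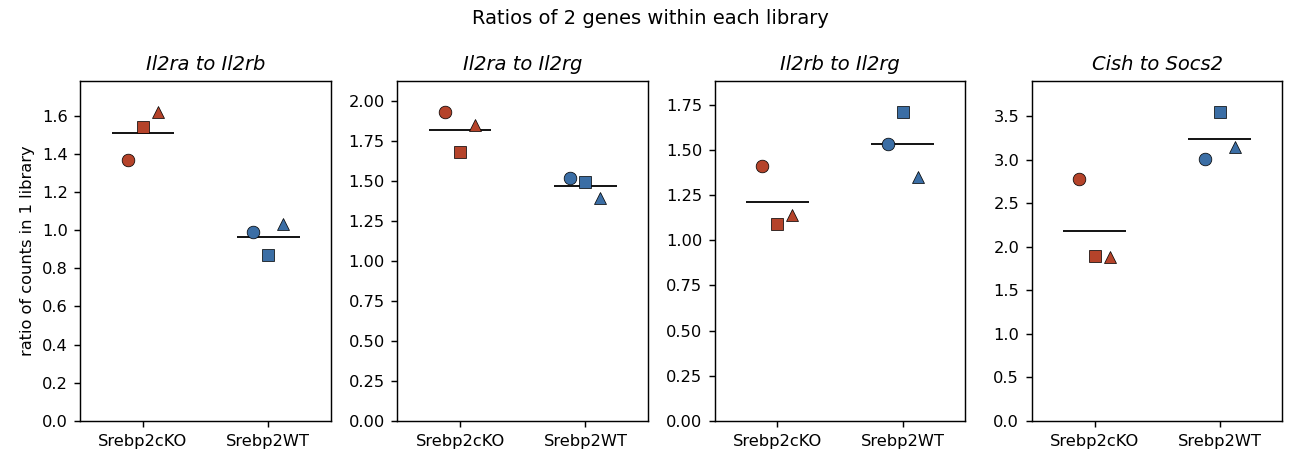
Ratios of the counts of 2 genes within each library (y axis, from 0) for Srebp2cKO (left, red) and Srebp2WT (right, blue), with lines at the mean of 3 libraries. Il2ra per Il2rb lies between 1.37 and 1.62 in Srebp2cKO and between 0.868 and 1.03 in Srebp2WT, and Cish per Socs2 is lower in every Srebp2cKO library than in any Srebp2WT library.

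Il7r (chromosome 15 from 9505788 to 9530176, minus strand) encodes the interleukin-7 receptor alpha chain. It had 344, 363 and 335 CPM in Srebp2cKO, against 216, 334 and 267 CPM in Srebp2WT. The Srebp2cKO libraries were tight and the Srebp2WT libraries were spread widely, and the highest Srebp2WT library nearly reached the lowest Srebp2cKO library. With scaling to total counts alone the groups overlapped. Mean levels were 347 ± 14.3 CPM in Srebp2cKO and 272 ± 59.1 CPM in Srebp2WT, and the log2 fold change of 0.35 (SE 0.13, 95% interval 0.06 to 0.64) did not pass (edgeR adjusted p = 0.117). Without Srebp2WT replicate 1, the lowest library, it was 0.21 (adjusted p = 0.329), and without Srebp2WT replicate 3 it was 0.53 (adjusted p = 0.0552). The count of Il7r per count of Il2ra overlapped between the groups, at 0.374, 0.405 and 0.356 in Srebp2cKO and 0.308, 0.492 and 0.384 in Srebp2WT (log2 difference -0.04, exact permutation p = 0.800, adjusted p = 0.800).

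Il4ra (chromosome 7 from 125552120 to 125579474, plus strand), the interleukin-4 receptor alpha chain, had 298, 248 and 276 CPM in Srebp2cKO, against 227, 265 and 240.1 CPM in Srebp2WT. The groups overlapped, and the log2 fold change of 0.17 (SE 0.09, 95% interval -0.03 to 0.37) did not pass (edgeR adjusted p = 0.247). With the GC trend removed, described below, Il4ra was called higher (log2 fold change 0.34, edgeR adjusted p = 0.0213). An antisense gene, Gm44876, overlaps 9.51% of Il4ra exon bases.

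Jak3 (chromosome 8 from 71676296 to 71690575, plus strand), the kinase bound to the gamma chain, was spread widely within both groups. It had 219, 145 and 182 CPM in Srebp2cKO, against 311, 284 and 214 CPM in Srebp2WT. The lowest Srebp2WT library lay just under the highest Srebp2cKO library. Mean levels were 182 ± 36.6 CPM in Srebp2cKO and 269.5 ± 50.1 CPM in Srebp2WT, and the log2 fold change of -0.57 (SE 0.16, 95% interval -0.92 to -0.21) narrowly missed the threshold (edgeR adjusted p = 0.0584). It passed with DESeq2 (log2 fold change -0.57, adjusted p = 0.00416), with no filter on low counts (-0.57, adjusted p = 0.0156), without Srebp2cKO replicate 6 (-0.72, adjusted p = 0.0257) and without Srebp2WT replicate 5 (-0.71, adjusted p = 0.0207). Exons of Insl3 overlap 404 bases of Jak3 exons on the same strand, so a small part of the Jak3 count is uncertain. With scaling to total counts alone, all Srebp2cKO libraries lay below all Srebp2WT libraries.

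Stat5a and Stat5b are neighbouring genes on chromosome 11 (100859351 to 100885169 on the plus strand and 100780731 to 100850724 on the minus strand) that encode closely related STAT5 proteins. Stat5b had 308, 282 and 299.7 CPM in Srebp2cKO, against 302, 317 and 305 CPM in Srebp2WT (log2 fold change -0.05, 95% interval -0.21 to 0.10, edgeR adjusted p = 0.633). Stat5a had 129, 100.1 and 113 CPM in Srebp2cKO, against 131, 134 and 115 CPM in Srebp2WT (log2 fold change -0.15, 95% interval -0.38 to 0.07, adjusted p = 0.345). Both overlapped between the groups, although with scaling to total counts alone all Srebp2cKO libraries of Stat5b lay below all Srebp2WT libraries. Stat5a counts per Stat5b count were 0.384 ± 0.0331 in Srebp2cKO and 0.411 ± 0.0304 in Srebp2WT (exact permutation p = 0.200, adjusted p = 0.320). Of the 50-base words in Stat5b transcripts, 11% also occur in Stat5a, so reads of these words cannot be assigned to one of them.

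Cish and Socs2 encode members of the suppressor of cytokine signalling family. Cish (chromosome 9 from 107296026 to 107302784, plus strand) had 156, 115 and 124 CPM in Srebp2cKO, against 159, 155 and 141 CPM in Srebp2WT (log2 fold change -0.21, SE 0.11, 95% interval -0.45 to 0.04, edgeR adjusted p = 0.237). Srebp2cKO replicate 6 lay within the Srebp2WT range and the other two Srebp2cKO libraries lay below it. Without Srebp2cKO replicate 6, Cish was called lower (-0.34, adjusted p = 0.0363).

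Socs2 (chromosome 10 from 95385362 to 95417180, minus strand) had 56.1, 60.9 and 66.1 CPM in Srebp2cKO, against 52.8, 43.8 and 44.8 CPM in Srebp2WT. All Srebp2cKO libraries were above all Srebp2WT libraries. The log2 fold change of 0.37 (SE 0.10, 95% interval 0.15 to 0.59) narrowly missed the threshold (edgeR adjusted p = 0.0523), and it passed with DESeq2 (0.37, adjusted p = 0.0188), with no filter on low counts (0.37, adjusted p = 0.0354) and without Srebp2cKO replicate 6 (0.43, adjusted p = 0.0339).

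The fold changes of these 2 feedback genes thus had opposite signs. There were 2.78, 1.90 and 1.88 counts of Cish per count of Socs2 in Srebp2cKO, against 3.01, 3.55 and 3.15 in Srebp2WT. The ranges did not overlap (log2 difference -0.59, exact permutation p = 0.1, the smallest possible, and 0.267 adjusted over the 8 ratios).

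RefSeq start windows were found for 8 of the 10 genes, all but Il2rb and Socs2. Stat5a and Stat5b had more than 1 window each. TTCNNNGAA, which reads the same on both strands, occurred in 2 of these 8, Cish and Il7r, against 8.30% of all 32851 windows of 300 bases. Those windows belong to 27025 gene symbols, so this share counts windows and not genes. TCACNCCAC occurred in 0 of the 8 on either strand, against 1.24% of all windows. Cish and Il7r are shown with each match in capitals. Cish holds a tandem pair, TTCCTGGAA and TTCTTGGAA, centred 4 and 15 bases after the RefSeq start, in chr9:107296409-107296708 on the plus strand. Il7r holds TTCAGGGAA centred 138 bases before its RefSeq start, in chr15:9529827-9530126 on the minus strand. These RefSeq starts lie inside the gene positions given above, which are from GENCODE. A match of letters is a description and not a measured binding site.
Cish: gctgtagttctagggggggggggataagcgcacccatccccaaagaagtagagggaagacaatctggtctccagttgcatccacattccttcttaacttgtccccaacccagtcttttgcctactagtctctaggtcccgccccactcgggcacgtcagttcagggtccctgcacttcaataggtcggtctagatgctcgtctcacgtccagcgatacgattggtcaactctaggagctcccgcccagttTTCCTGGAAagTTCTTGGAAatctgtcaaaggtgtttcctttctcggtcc
Il7r: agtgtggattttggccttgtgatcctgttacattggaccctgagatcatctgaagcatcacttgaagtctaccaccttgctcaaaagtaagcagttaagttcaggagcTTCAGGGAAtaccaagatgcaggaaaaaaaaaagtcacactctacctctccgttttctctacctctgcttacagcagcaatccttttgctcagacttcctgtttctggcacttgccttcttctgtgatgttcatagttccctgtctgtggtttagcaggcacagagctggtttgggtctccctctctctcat

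Levels were also compared between genes as CPM per kilobase of the longest GENCODE transcript. In Srebp2cKO the order ran from Il2rg (303 ± 17.2) through Il2ra (208 ± 5.01), Il2rb (146 ± 12.3), Il7r (98.1 ± 4.05), Stat5b (56.9 ± 2.53), Il4ra (52.1 ± 4.78), Cish (46.2 ± 7.51), Jak3 (45.3 ± 9.11) and Stat5a (29.3 ± 3.75) to Socs2 (27.5 ± 2.24). In Srebp2WT it ran from Il2rg (283 ± 14.1) through Il2rb (172 ± 13.0), Il2ra (157 ± 2.57), Il7r (76.9 ± 16.7), Jak3 (67.1 ± 12.5), Stat5b (59.1 ± 1.55), Cish (53.3 ± 3.31), Il4ra (46.4 ± 3.63) and Stat5a (32.6 ± 2.64) to Socs2 (21.2 ± 2.22). The first place of Il2rg depended on its transcript length of 1670 bases. Without lengths, Il2rg had 506 CPM in Srebp2cKO and 472 CPM in Srebp2WT. Both were below Il2ra (919.7 and 691 CPM) and Il2rb (612 and 721 CPM). Per kilobase, Il2ra stood above Il2rb in Srebp2cKO and below it in Srebp2WT, and in neither group did the libraries of Il2ra and Il2rb overlap. In Srebp2WT the gap between Il2ra and Il2rb was narrow, at 154 to 159 for Il2ra and 161 to 186 for Il2rb. It depended on the transcript lengths used, 4412 bases for Il2ra and 4194 for Il2rb. Without lengths, counts of Il2ra per Il2rb in Srebp2WT were 0.993, 0.868 and 1.03, and 1.08, 0.979 and 1.05 with the GC trend removed, near parity. Neighbours whose libraries overlapped were Stat5b and Il4ra, Il4ra and Cish, Cish and Jak3, and Stat5a and Socs2 in Srebp2cKO, and Il7r and Jak3, Jak3 and Stat5b, and Cish and Il4ra in Srebp2WT.

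**Figure D3:**
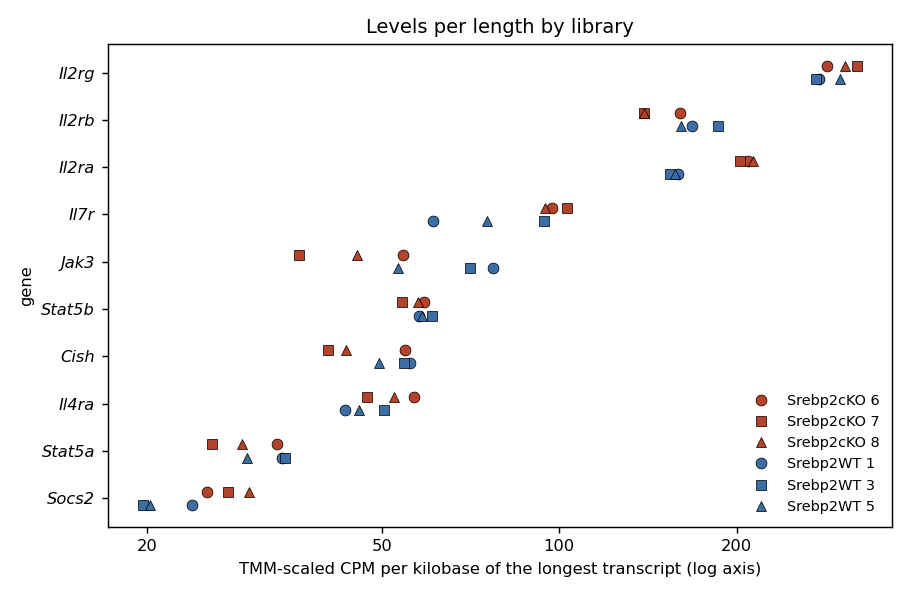
Level of each gene as TMM-scaled CPM per kilobase of its longest transcript (x axis, logarithmic) in each Srebp2cKO library (red, upper row of a gene) and each Srebp2WT library (blue, lower row). Per kilobase Il2rg is highest in all libraries, which depends on its transcript length of 1670 bases. Il2ra lies above Il2rb in Srebp2cKO and slightly below it in Srebp2WT, where the order depends on the transcript lengths used.

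Fold changes over all genes moved with the GC content of transcripts, and the 10 genes span a wide range of it. The decile of tested genes with the lowest GC content had a median log2 fold change of 0.24, with 85 called higher and 9 lower, and the decile with the highest had -0.27, with 4 higher and 105 lower. Il7r, at 40.5% GC, lies in the lowest decile and Jak3, at 61.1%, in the highest. The slope of log2 CPM on GC per 10 points was 0.01, -0.25 and -0.12 in Srebp2cKO replicates 6, 7 and 8, and 0.15, 0.18 and 0.02 in Srebp2WT replicates 1, 3 and 5. Jak3 was highest in the 2 libraries with the steepest positive slopes, at 311 and 284 CPM, and lowest in those with negative slopes, at 145 and 182 CPM. It was in between, at 219 and 214 CPM, in the libraries with slopes near 0. The steepest positive slopes were both in Srebp2WT and the negative slopes both in Srebp2cKO. Slope and genotype therefore cannot be told apart here, and the cause of the Jak3 difference was not tested.

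**Figure D4:**
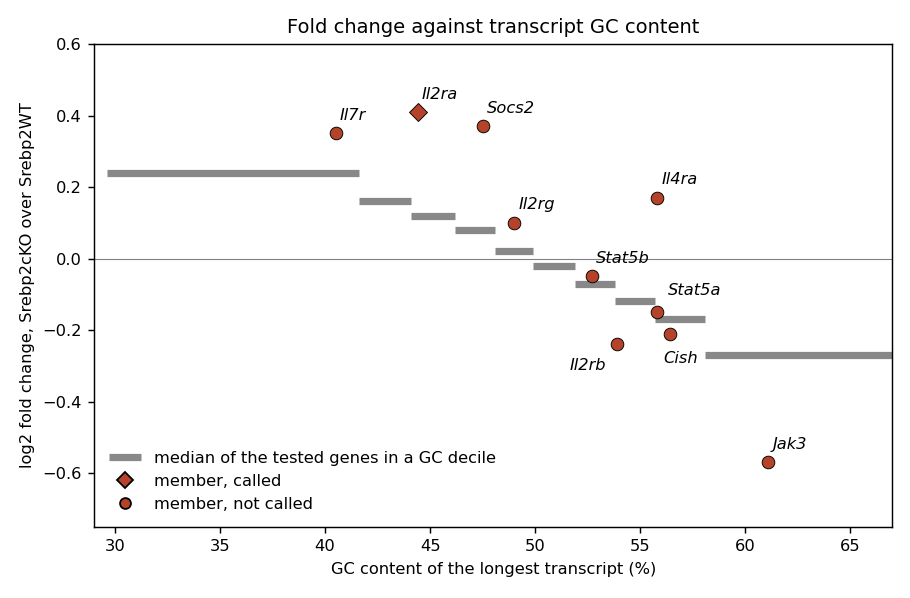
Log2 fold change of Srebp2cKO over Srebp2WT (y axis) against the GC content of the longest transcript in percent (x axis) for the 10 genes (red), with grey bars for the median of each decile of the tested genes (the last bar runs on past the axis to 81.5%). Stat5b, Stat5a and Cish lie close to the bars, while Il2ra, Socs2 and Il4ra lie above them and Jak3 below.

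With the GC trend removed from each library, 3 of the 10 genes were called higher and 0 lower, against 3.05% and 3.40% of all genes. In 4 of the 10 genes (Il2ra, Il4ra, Stat5b and Socs2) the adjusted libraries did not overlap, against 28.4% of all genes. Il2ra kept its call (log2 fold change 0.34, SE 0.07, edgeR adjusted p = 0.0164), with 940.5, 852 and 901 adjusted CPM in Srebp2cKO and 716, 719 and 691 in Srebp2WT. Socs2 (0.37, adjusted p = 0.0369) and Il4ra (0.34, adjusted p = 0.0213) were also called higher. Adjusted levels of Il4ra were 298, 285 and 289 CPM in Srebp2cKO and 209, 243 and 235 CPM in Srebp2WT, so the overlap seen before the adjustment was gone.

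Negative fold changes moved towards 0 in the same fit. Jak3 had a log2 fold change of -0.24 (adjusted p = 0.160), Il2rb -0.09 (adjusted p = 0.474) and Cish -0.02 (adjusted p = 0.904), and Stat5a (0.02) and Stat5b (0.05) changed sign. Il7r, the gene of lowest GC content, had 0.17 (adjusted p = 0.471). The adjusted ratio of Il2ra to Il2rb was 1.40, 1.31 and 1.49 in Srebp2cKO and 1.08, 0.979 and 1.05 in Srebp2WT, still without overlap (log2 difference 0.43, exact permutation p = 0.1, adjusted p = 0.4). Il2ra to Il2rg overlapped after the adjustment (log2 difference 0.20, exact permutation p = 0.3, adjusted p = 0.480). Cish to Socs2 remained lower in every Srebp2cKO library, by a narrow margin, at 2.00 to 2.75 in Srebp2cKO and 2.77 to 3.18 in Srebp2WT (log2 difference -0.39, exact permutation p = 0.1, adjusted p = 0.4).

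**Figure D5:**
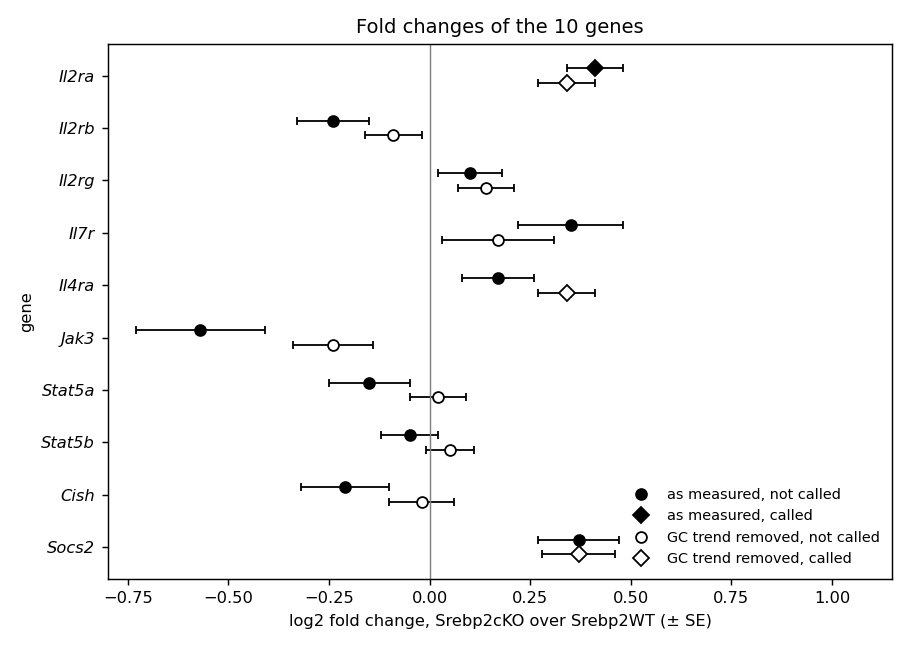
Log2 fold change of Srebp2cKO over Srebp2WT (x axis, ± SE) of each gene as measured (filled) and with the GC trend removed from each library (open), with diamonds for genes called at an adjusted p under 0.05. Il2ra is a diamond in both fits, Socs2 and Il4ra only in the second, and Jak3 moves from -0.57 to -0.24.

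The rest of the pathway was covered by lists of its known genes. The ligands of the family were almost absent, with Il2, Il4, Il7, Il9 and Il15 below the filter on low counts. Tslp, for the related ligand thymic stromal lymphopoietin, which uses the interleukin-7 receptor alpha chain, was also below it. Il21, which did pass the filter, had 0.993 ± 0.477 CPM in Srebp2cKO and 1.25 ± 0.431 CPM in Srebp2WT (edgeR adjusted p = 0.650). Of 5 other receptor chains, 1 fell and 0 rose (median log2 fold change -0.65), and all 5 had negative log2 fold changes. The 1 that fell was Crlf2, the chain that binds thymic stromal lymphopoietin together with the interleukin-7 receptor alpha chain. It had 16.9 ± 3.61 CPM in Srebp2cKO and 29.3 ± 5.73 CPM in Srebp2WT (log2 fold change -0.80, SE 0.17, adjusted p = 0.0276), and it missed the threshold with the GC trend removed (-0.41, adjusted p = 0.0710). It also missed it without Srebp2cKO replicate 7 (0.0773) or 8 (0.0770) or Srebp2WT replicate 1 (0.122) or 3 (0.109).

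Of 8 other JAK and STAT genes, 1 fell and 0 rose (median -0.05). Tyk2, a kinase of interferon and interleukin-12 receptors, fell to 104 ± 15.3 CPM in Srebp2cKO, against 139 ± 4.46 CPM in Srebp2WT (log2 fold change -0.43, SE 0.10, adjusted p = 0.0388), and its call was lost with the GC trend removed (-0.22, adjusted p = 0.0888). Leaving out Srebp2cKO replicate 7 (0.0645) or 8 (0.0734) or Srebp2WT replicate 1 (0.135) or 3 (0.140) also ended it. Of 14 other SOCS, PIAS and phosphatase genes (median -0.05), 0 were called in either direction with edgeR, DESeq2 or limma-voom. At an unadjusted edgeR p under 0.05, 2 were higher and 4 lower, where 29.1% of all genes passed in either direction. With the GC trend removed 0 were called, and 2 were higher and 1 lower at that unadjusted threshold. Ptpn1, a phosphatase of JAK kinases, had the smallest p in the main fit, with 159 ± 11.4 CPM in Srebp2cKO and 187 ± 13.9 CPM in Srebp2WT (log2 fold change -0.24, edgeR adjusted p = 0.105). Its log2 fold change was -0.06 with the GC trend removed (edgeR adjusted p = 0.647).

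Of 10 tested genes of the MAP kinase and PI3K branches, 1 rose and 0 fell (median 0.06). Pik3r1, the regulatory subunit p85 alpha of PI3K, rose to 527 ± 31.1 CPM in Srebp2cKO, against 404 ± 47.7 CPM in Srebp2WT (log2 fold change 0.38, SE 0.10, adjusted p = 0.0425). Its call was lost with the GC trend removed (0.32, adjusted p = 0.0738) and without Srebp2cKO replicate 6 (0.0531), 7 (0.103) or 8 (0.0629) or Srebp2WT replicate 1 (0.157) or 3 (0.112), with a 1-library range of 0.29 to 0.43 in log2 fold change.

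Further genes known to respond to STAT5 moved both ways. Their list held none of the 10 genes. It thus left out Il2ra, called higher above, and Cish and Socs2, which STAT5 switches on. Of 18 tested, 1 rose and 2 fell (median -0.06) with edgeR. DESeq2 called 1 higher and 4 lower, adding Tnfrsf4 and Ikzf2 to those that fell. With the GC trend removed 3 were called higher (Bcl2, Myc and Lta) and 2 lower (Prdm1 and Ikzf2), so the balance of calls turned with the setting. Bcl2, an anti-apoptotic gene, rose (log2 fold change 0.52, SE 0.10, edgeR adjusted p = 0.0180), with 669.7, 731 and 587 CPM in Srebp2cKO and 424, 459 and 503 CPM in Srebp2WT. Prdm1, which encodes the effector Treg factor Blimp-1, fell to 28.3 ± 0.0523 CPM in Srebp2cKO, against 39.2 ± 3.25 CPM in Srebp2WT (-0.47, adjusted p = 0.0194). Tnfrsf18, the costimulatory receptor GITR, fell to 109 ± 11.1 CPM in Srebp2cKO, against 143 ± 13.9 CPM in Srebp2WT (-0.39, adjusted p = 0.0438). The call of Tnfrsf18 was lost with the GC trend removed (-0.21, adjusted p = 0.1), and each of these calls was lost without Srebp2WT replicate 1 (edgeR adjusted p = 0.0879 for Bcl2, 0.103 for Prdm1 and 0.179 for Tnfrsf18). Bcl2 was also lost without Srebp2WT replicate 3 (0.0827), Prdm1 without Srebp2cKO replicate 8 (0.0562), and Tnfrsf18 without Srebp2cKO replicates 7 (0.115) or 8 (0.0949) or Srebp2WT replicate 3 (0.135). Foxp3 had 435 ± 27.0 CPM in Srebp2cKO and 454 ± 11.5 CPM in Srebp2WT (log2 fold change -0.06, adjusted p = 0.611), and its sign turned with the GC trend removed (0.10, adjusted p = 0.381).

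Of 8 transcription factors linked to Il7r expression, 2 rose and 0 fell (median 0.21). Foxp1, which in mouse T cells opposes FOXO1 at Il7r, rose to 494 ± 13.3 CPM in Srebp2cKO, against 380.2 ± 22.5 CPM in Srebp2WT (log2 fold change 0.38, SE 0.07, edgeR adjusted p = 0.0202). Klf2, a quiescence factor, rose, with 300.4, 313 and 291 CPM in Srebp2cKO, against 189, 234 and 232 CPM in Srebp2WT (0.46, SE 0.09, adjusted p = 0.0203), and its log2 fold change was 0.81 with the GC trend removed (adjusted p = 0.00516). Both calls were lost without Srebp2WT replicate 1 (adjusted p = 0.103 for Foxp1 and 0.0754 for Klf2) or replicate 3 (0.0822 and 0.0534), and that of Foxp1 also without Srebp2cKO replicate 8 (0.0543). Foxo1, which activates Il7r, had 492 ± 17.3 CPM in Srebp2cKO and 427 ± 20.8 CPM in Srebp2WT and did not pass (log2 fold change 0.20, adjusted p = 0.106). Ets1, from the same list, had 2524 ± 62.5 CPM in Srebp2cKO and 2161 ± 148 CPM in Srebp2WT. It did not pass with edgeR (log2 fold change 0.22, adjusted p = 0.110) but was called higher with DESeq2.

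Markers of Tregs and of other blood cells were summed per library as CPM of total counts. The 6 Treg markers summed to 4037 to 4192 CPM in Srebp2cKO and 4115 to 4335 CPM in Srebp2WT. Ikzf2, the most abundant of them, encodes Helios and had 1326 ± 53.0 CPM in Srebp2cKO and 1591 ± 66.7 CPM in Srebp2WT (log2 fold change -0.26, edgeR adjusted p = 0.0645). It passed with the GC trend removed (-0.45, adjusted p = 0.00778), with DESeq2 (-0.26, adjusted p = 0.0105) and with upper-quartile (-0.29, adjusted p = 0.0437) or total-count scaling (-0.30, adjusted p = 0.0491). The 5 B cell markers summed to 25.8 to 34.4 CPM in Srebp2cKO and 56.4 to 79.4 CPM in Srebp2WT, and the 6 myeloid and dendritic cell markers to 33.0 to 38.8 CPM in Srebp2cKO and 50.6 to 84.8 CPM in Srebp2WT. For the 3 markers of type 2 innate lymphoid cells the sums were 16.8 to 37.3 CPM in Srebp2cKO and 41.5 to 72.6 CPM in Srebp2WT. In these 3 lists every Srebp2cKO library lay below every Srebp2WT library, although not every member did. Of all single genes tested, 15.5% lay so. The largest part of each sum came from 1 gene, Cd74, Cybb or Il1rl1, so each sum mainly follows that gene. Ms4a1, Lyz2, Csf1r, Itgax, Flt3, Ncr1, Cpa3, Ms4a2 and Fcer1a had at most 5 counts in any library. The 4 natural killer cell markers summed to 12.1 to 14.8 CPM in Srebp2cKO and 14.4 to 20.3 CPM in Srebp2WT, and the 2 CD8 T cell markers to 8.70 to 10.3 CPM in Srebp2cKO and 7.01 to 7.59 CPM in Srebp2WT. In the CD8 T cell sum every Srebp2cKO library lay above every Srebp2WT library, as did 16.0% of single genes. The 3 markers of mast cells and basophils summed to at most 0.0643 CPM in any library. The most abundant gene was Cd74 among the B cell markers (17.7 ± 3.12 CPM in Srebp2cKO and 39.2 ± 7.84 CPM in Srebp2WT) and Cybb among the myeloid markers (33.1 ± 2.96 CPM in Srebp2cKO and 60.7 ± 18.0 CPM in Srebp2WT).

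Of 4 tested B cell markers 3 fell, Cd74 (log2 fold change -1.14, edgeR adjusted p = 0.00441), Cd22 (-1.52, adjusted p = 0.0101) and Cd79b (-0.68, adjusted p = 0.0492). The fourth, Cd79a, was higher in every Srebp2cKO library, at 0.996 ± 0.0305 CPM in Srebp2cKO and 0.674 ± 0.158 CPM in Srebp2WT, and did not pass (0.56, adjusted p = 0.308). Cybb (-0.87, adjusted p = 0.0216) and the natural killer cell marker Klrb1c (-1.36, adjusted p = 0.0399) fell too. In the same lists, Itgam had 2.03 ± 0.661 CPM in Srebp2cKO and 0.960 ± 0.409 CPM in Srebp2WT (1.07, adjusted p = 0.108), and Eomes had 5.08 ± 1.90 CPM in Srebp2cKO and 3.21 ± 0.503 CPM in Srebp2WT (0.66, adjusted p = 0.170). Il1rl1, which effector Tregs also express, fell to 16.1 ± 9.10 CPM in Srebp2cKO, against 48.1 ± 16.0 CPM in Srebp2WT (-1.56, adjusted p = 0.0302). Hpgds, another marker of type 2 innate lymphoid cells, overlapped, at 5.92 ± 0.124 CPM in Srebp2cKO and 6.01 ± 0.876 CPM in Srebp2WT (-0.02, adjusted p = 0.944). Il17rb, the remaining marker of that list, had 3.61 ± 1.67 CPM in Srebp2cKO and 7.11 ± 0.808 CPM in Srebp2WT, without overlap. It did not pass with edgeR (-0.96, adjusted p = 0.0689) and was called lower with DESeq2. The call of Cybb was lost without Srebp2cKO replicate 7 (adjusted p = 0.0582), and that of Il1rl1 without Srebp2cKO replicate 7 (0.0618) or Srebp2WT replicate 1 (0.122) or 5 (0.0509). Cd79b lost its call without any library but Srebp2cKO replicate 6 (0.0705 to 0.188), with limma-voom (0.0501) and with the GC trend removed (0.0813), and Klrb1c without any library but Srebp2WT replicate 5 (0.0598 to 0.178). Nkg7 (-0.52, adjusted p = 0.105) and Cd8b1 (0.31, adjusted p = 0.199) led their lists in abundance and did not pass. The part of other cells in the values of the 10 genes was not tested.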

How the data were processed

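The 10 genes and the gene lists were chosen with earlier results of these data known. Per the labels' protocols, RNA was purified on Qiagen RNeasy columns, depleted of ribosomal RNA and sequenced as KAPA HyperPrep libraries. The authors deposited raw counts per gene symbol for 6 libraries. HISAT2 2.2.1, mm10 and Cell Ranger appear in the submitters' processing notes without a role. Counting tool, annotation and strand setting were not given in the sources used here. Overlapping or near-identical genes may therefore share reads. Column names matched sample titles. Pairs of libraries within a group differed beyond sampling noise (chi-square over degrees of freedom 6.71 to 34.8), and each library was 1 replicate. Pairs across groups gave 12.1 to 70.2 by the same measure. Srebp2cKO replicate 6 with Srebp2WT replicate 5 (12.1) lay below Srebp2cKO replicate 6 with replicate 7 (34.8) or 8 (12.4). Libraries thus did not separate fully by group on this measure.

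The main test was the quasi-likelihood F test in edgeR 4.0.16 (R 4.3.3) of Srebp2cKO over Srebp2WT, without covariates, after filterByExpr and TMM scaling. Adjustment was by Benjamini-Hochberg over 11932 genes, with calls under 0.05. An SE is the absolute log2 fold change over the square root of F. Log2 ratios had 0.5 added to each count, or 1 as an alternative. On simulated data the test recovered large changes of well expressed genes but missed most small ones, so a gene that was not called may still differ. The criterion for that check was narrowed to well expressed genes after its first result, which fell short over all genes, was seen. Other alternatives were RLE, upper-quartile or no scaling beyond total counts, DESeq2 1.42.0, voom in limma 3.58.1, no filter, at least 1 CPM in 3 libraries, a false discovery rate of 0.1, each library left out, and removal, as offsets, of each library's loess curve (span 0.3) of expression on transcript GC (known for 11459 tested genes). Applying that removal to ratios was chosen after seeing the data. Positions, lengths and GC are from GENCODE M21 (GRCm38), and start windows from RefSeq (GRCm38.p6). The rule for names took the 10 genes, Srebf2, Foxp3, up to 4 called genes of each list by smallest p (with none called, the 1 of smallest p) and the most abundant gene of each marker list. Foxo1, other list members called by another tool or setting, and further cell markers were added after their values were seen. A further marker of the B cell list is not reported here.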

Additional observations from a re-analysis of the deposited data

How the results depend on the processing

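No paired analysis was possible because the replicate numbers of the groups (6, 7 and 8, and 1, 3 and 5) are not shared. Of 140 alternative fold changes of the 10 genes, 126 kept their direction and side of the threshold. Il2ra missed it without Srebp2WT replicate 3 (0.40, against 0.40 to 0.42 over the fits that left out 1 library). Fits that left out 1 library gave Il2rb -0.31 to -0.17, Il7r 0.21 to 0.53, Jak3 -0.72 to -0.43, Cish -0.34 to -0.13 and Socs2 0.31 to 0.47. Jak3 passed with DESeq2 (-0.57) and with no filter (-0.57), as did Socs2 (0.37 in both). With the GC trend removed, Il4ra (0.34) and Socs2 (0.37) passed, and Stat5a (0.02), Stat5b (0.05) and Foxp3 (0.10) changed sign. Of the 10 genes, 2 were called higher and 1 lower with DESeq2, with no filter and at a false discovery rate of 0.1 (where 15.9% of all genes passed), 3 were called higher with the GC trend removed, and 0 to 2 higher and 0 to 3 lower when 1 library was left out. Without Srebp2WT replicate 3 no member was called in either direction, and without Srebp2cKO replicate 6 there were 2 higher and 3 lower. Of all genes, 283 were higher and 506 lower, against 184 and 570 with total-count scaling, 626 and 778 with DESeq2, and 473 and 732 with no filter. With the GC trend removed there were 364 and 406, so the split between higher and lower moved. Leaving out 1 library gave 29 to 700 higher and 135 to 787 lower. The difference in the log2 ratio of Il7r to Il2ra ranged from -0.20 to 0.13 and that of Il4ra to Il2rg from -0.04 to 0.17 without 1 library, on both sides of 0. The cause of these changes was not tested. The SEs of the 10 fold changes were 0.07 to 0.16 with 3 libraries a group, which limits what could be called.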
